A study of Mus musculus with 10 samples.

Results

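The Cyp2a family encodes microsomal cytochrome P450 enzymes of the mouse liver. It was followed across liver libraries of Nrf2Act-hep mice and wild-type (WT) mice. Its members were taken by name, as Cyp2a4, Cyp2a5, Cyp2a12 and Cyp2a22, and these 4 were the only genes named Cyp2a among the 18869 gene identifiers of the deposited table. The Nrf2Act-hep mice carry NRF2 activation labelled as specific to the liver, and both genotypes were C57BL/6 mice of 6 weeks, fed regular chow and fasted for 15 h. Each genotype had 5 libraries. The titles end in a letter, F for Nrf2Act-hep replicates 9 and 10 and WT replicates 3 to 5, and M for Nrf2Act-hep replicates 6 to 8 and WT replicates 1 and 2, and the sex-linked transcripts fitted these letters. The sources used here give neither the way NRF2 was activated nor the promoter, and they do not say that each library is from a separate mouse. The p-values are therefore measured against the spread among libraries, which may be technical.

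A P450 enzyme inserts oxygen into its substrate with electrons passed on by a reductase, and carries haem at its active site. Mouse Cyp2a5 is the liver's coumarin hydroxylase, acts on nicotine and bilirubin, and is the counterpart of a human nicotine-metabolising P450. Cyp2a4 is its near-identical paralog, a testosterone hydroxylase, known to be more abundant in female than in male mouse liver. Cyp2a12 hydroxylates steroids and bile acids. NRF2, the product of Nfe2l2, switches on detoxification genes, and Cyp2a5 is known to respond to it in mouse hepatocytes.

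The 4 genes lie in a P450 cluster on chromosome 7 (GRCm38, GENCODE models), where Cyp2a4 spans 26307169 to 26315088 on the plus strand and Cyp2a5 spans 26835305 to 26843548 on the same strand, 520.2 kb apart. Cyp2a22 spans 26931631 to 26939384 on the minus strand and Cyp2a12 spans 27029081 to 27037375 on the plus strand. By sequence they fall into 2 pairs. Cyp2a4 and Cyp2a5 shared 1462 of 1485 coding bases (98.5%), and each codes for 494 amino acids. Cyp2a12 and Cyp2a22 shared 1434 of 1479 coding bases (97.0%), with 492 amino acids each. Between the pairs the coding identity was 75.3 to 76.4%. The pairs also showed upstream of the genes, in the first 210 bases of the RefSeq windows (GRCm38.p6) that begin 250 bases before each start. These stretches are printed because the members of one pair rose together while those of the other did not. They run 5′ to 3′ on the strand of the gene, and capitals mark the bases that differ from the other member of the pair within the aligned stretch.
Cyp2a4 (chr7:26306942-26307151, plus strand): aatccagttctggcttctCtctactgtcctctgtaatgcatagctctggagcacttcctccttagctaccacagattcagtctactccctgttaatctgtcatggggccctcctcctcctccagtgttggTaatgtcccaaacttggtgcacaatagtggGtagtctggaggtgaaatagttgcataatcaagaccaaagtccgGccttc
Cyp2a5 (chr7:26835089-26835298, plus strand): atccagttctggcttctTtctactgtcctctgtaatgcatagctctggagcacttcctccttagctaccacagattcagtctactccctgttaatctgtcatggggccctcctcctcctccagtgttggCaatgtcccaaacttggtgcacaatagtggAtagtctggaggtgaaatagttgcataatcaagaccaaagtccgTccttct
Cyp2a12 (chr7:27028840-27029049, plus strand): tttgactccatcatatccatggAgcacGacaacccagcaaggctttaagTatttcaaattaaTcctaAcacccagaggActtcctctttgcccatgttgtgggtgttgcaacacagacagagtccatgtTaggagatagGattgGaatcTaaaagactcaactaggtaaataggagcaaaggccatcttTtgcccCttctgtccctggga
Cyp2a22 (chr7:26939427-26939636, minus strand): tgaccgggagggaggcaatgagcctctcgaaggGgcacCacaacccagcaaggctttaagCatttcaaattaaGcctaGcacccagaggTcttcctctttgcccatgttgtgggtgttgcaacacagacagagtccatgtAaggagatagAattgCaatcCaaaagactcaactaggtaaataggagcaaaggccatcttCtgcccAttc

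Over 209 aligned bases the Cyp2a4 and Cyp2a5 stretches differed at 4 positions, C19T, T131C, G161A and G205T, each with the Cyp2a4 base first and counted from the 5′ end of the Cyp2a4 stretch. Cyp2a12 and Cyp2a22 differed at 12 of 179 aligned bases. No alignment of at least 50 bases was found between the pairs. In the full windows of 300 bases, searched on both strands, the D-box letters TTATGNAA occurred once each in Cyp2a4 and Cyp2a5 and not in the other pair, against 3.38% of 32851 promoter windows. D-boxes are bound by circadian bZIP factors such as DBP. The letters CAAAGTCC, a form of the HNF4 site, likewise occurred once each in Cyp2a4 and Cyp2a5 (1.42% of windows). The Cyp2a4 and Cyp2a5 windows are near copies, so their matches are not independent. In Cyp2a4 the D-box letters lay 70 to 63 bases and the HNF4 letters 55 to 48 bases before the start, and neither overlapped a base that differs from Cyp2a5. TATAAA occurred in all 4 windows (13.6% of windows). The NRF2 element core TGACNNNGC (12.4% of windows), the STAT5 letters TTCNNNGAA (8.30%) and the xenobiotic element core GCGTG (32.4%) were in none of these 4 windows. The searches for TTCNNNGAA and TGACNNNGC cover this short window alone, so nothing follows for elements farther away.

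Libraries were made with a kit that reads a 75-base tag near the 3′ end of polyadenylated RNA, so similarity near that end decides which members a tag can be told apart from. Of the 426 windows of 75 bases in the last 500 bases of the Cyp2a4 transcript, 321 lay within 2 differing bases of another member, and 101 had an exact copy in Cyp2a5 or in the pseudogene Cyp2a21-ps. For Cyp2a5 the annotated end decided the number. It was 56 windows for the GENCODE transcript, whose 3′ untranslated region of 469 bases runs beyond the 204 of Cyp2a4, and 320 when the transcript ended 264 bases earlier at the RefSeq end. Cyp2a12 had 130 such windows and Cyp2a22 had 88. Windows were compared base by base without gaps, so an inserted or missing base raises the number of differences. The counts of similar windows may thus be too low. Aligned with gaps, the 3′ untranslated regions of Cyp2a4 and Cyp2a5 differed at 6 of 204 bases, with 1 gap position. Those of Cyp2a12 and Cyp2a22 differed at 10 of 178 bases, with 8 gap positions. The sources used here do not say how tags that match several genes were counted, so the split between members of a pair is uncertain.

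**Figure D1:**
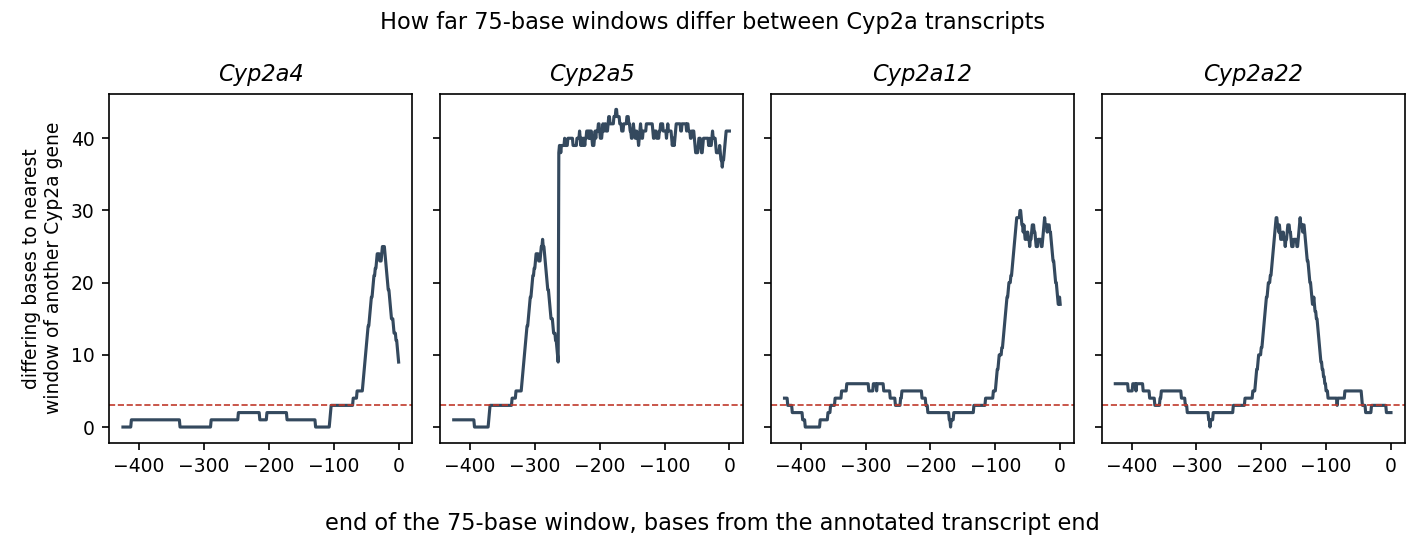
For each Cyp2a transcript, the number of bases by which each 75-base window differs from its nearest counterpart in another Cyp2a transcript (y axis) against the distance in bases of the window's end from the annotated transcript end (x axis), with a dashed line at 3 differences. Bases were compared without gaps, so an inserted or missing base raises the number. For Cyp2a4 321 of 426 windows lie under the line, against 56 of 426 for the annotated Cyp2a5 transcript.

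Recovered depth was 2167528 to 2806670 reads in Nrf2Act-hep libraries and 1267745 to 2287727 reads in WT libraries. Levels are given as CPM, counts scaled to a common library total, after TMM scaling, which corrects for a few abundant genes taking up reads. A log2 fold change is the difference of log2(CPM + 1) values, fitted with limma with the letter as a term, and a gene is called at an adjusted p under 0.05. Of 8075 genes tested, 225 (2.79%) were higher and 150 (1.86%) were lower in Nrf2Act-hep, 4.64% in all. Nfe2l2 itself ranged over 37.4 to 48.0 CPM in Nrf2Act-hep and over 45.2 to 76.6 CPM in WT (limma log2 fold change -0.47 ± 0.13 SE, adjusted p = 0.044, a call lost in 12 of the 23 alternative fits). Summed hepatocyte markers ranged over 32145 to 41594 CPM in Nrf2Act-hep and over 43515 to 52366 CPM in WT. Alb made up most of this sum, with a mean of 21586 CPM in Nrf2Act-hep and 29502 CPM in WT. Of the 8 markers 2, Apoa1 and Serpina1a, were called lower, and 2 had a log2 fold change above 0 (median -0.27). None of the tested markers of Kupffer cells (8), endothelial cells (6), stellate cells (5), cholangiocytes (2) and red cells (5) was called, and no lymphocyte marker passed the filter on low values. In such bulk tissue, fewer cells of a type and less RNA per cell cannot be told apart, and the part of cell make-up in the differences below was not tested.

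Cyp2a4 and Cyp2a5 were far higher in livers with active NRF2, Cyp2a12 did not pass the test, and Cyp2a22, the least abundant, gave lower values that missed the threshold. The pair that rose ranked at 3 (Cyp2a4) and 7 (Cyp2a5) among the 8075 genes ordered by log2 fold change. In all, 2 of 4 members were called higher and 0 of 4 lower, beside the 2.79% and 1.86% of all genes given above. All 4 passed the filter on low values, Cyp2a22 only through its WT libraries. With 3 reads as the smallest count taken as measurable, the floor was 1.07 to 1.38 CPM in Nrf2Act-hep libraries and 1.31 to 2.37 CPM in WT libraries.

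Cyp2a5 had 945, 1268 and 1502 CPM in the M libraries of Nrf2Act-hep livers and 1077 and 776 CPM in their F libraries, against 130 and 108 CPM in M libraries and 75.1, 51.7 and 47.7 CPM in F libraries of WT livers. The lowest Nrf2Act-hep library stood far above the highest WT library. Such a gap without overlap was found for 3.05% of the genes tested upward, 2.09% downward and 5.14% in all. Mean levels were 1114 ± 282 CPM in Nrf2Act-hep and 82.6 ± 35.9 CPM in WT (SD, n = 5 each), a 13.5-fold ratio. The log2 fold change was 3.66 ± 0.17 (SE; 95% interval 3.30 to 4.03; limma, adjusted p = 1.06e-10), and the gene ranked between the 52nd and the 71st most abundant of all genes in the Nrf2Act-hep libraries and between the 660th and the 1826th in the WT libraries. This difference was called in all 23 alternative fits.

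Cyp2a4 had 191, 260 and 248 CPM in M libraries and 388 and 511 CPM in F libraries of Nrf2Act-hep livers, against 7.43 and 9.21 CPM in M libraries and 59.9, 40.1 and 45.0 CPM in F libraries of WT livers. Again no library of one genotype reached the other. Each WT M library held only 11 Cyp2a4 reads, so the fold in M rests on few counts. Means were 320 ± 129 CPM in Nrf2Act-hep and 32.3 ± 23.1 CPM in WT (SD, n = 5 each). Their 9.89-fold ratio was below the 13.5-fold ratio of Cyp2a5, although Cyp2a4 ranked higher by log2 fold change. The log2 fold change of Cyp2a4 was 3.92 ± 0.27 (SE, 95% interval 3.33 to 4.52, limma, adjusted p = 6.74e-06). It was called in all 23 alternative fits. Most tag positions of Cyp2a4 resemble the more abundant Cyp2a5, as given above, and the part of shared tags in its values was not tested. Gm42375, an antisense gene that overlaps the start of Cyp2a4, held 11 reads over the Nrf2Act-hep libraries and 1 read over the WT libraries.

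The sum of Cyp2a4 and Cyp2a5, which is not changed by moving tags from one to the other, though it would be by discarding them, was 1137 to 1750 CPM in Nrf2Act-hep and 91.7 to 137.9 CPM in WT. All 4 members together came to 1482 to 2214 CPM in Nrf2Act-hep and 431 to 605 CPM in WT, or 0.193 ± 0.028% of all reads in Nrf2Act-hep and 0.0484 ± 0.0082% in WT (SD, n = 5 each).

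Cyp2a12 had 341, 413 and 460 CPM in M libraries and 384 and 436 CPM in F libraries of Nrf2Act-hep livers, against 448 and 324 CPM in M libraries and 387, 344 and 308 CPM in F libraries of WT livers. The groups overlapped over most of their range. Means were 407 ± 46.5 CPM in Nrf2Act-hep and 362 ± 56.3 CPM in WT (SD, n = 5 each), with a log2 fold change of 0.16 ± 0.13 (SE; limma, adjusted p = 0.59). The 95% interval of -0.11 to 0.43 did not reach the size seen for Cyp2a4 or Cyp2a5.

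Cyp2a22 had 5.11, 0 and 4.56 CPM in M libraries and 14.5 and 0 CPM in F libraries of Nrf2Act-hep livers, against 18.9 and 14.2 CPM in M libraries and 35.7, 40.6 and 30.3 CPM in F libraries of WT livers. Within each letter every Nrf2Act-hep library was below every WT library, while across letters the highest Nrf2Act-hep library, an F one, just exceeded the lowest WT library, an M one. The reads behind these values were 65 over the Nrf2Act-hep libraries and 239 over the WT libraries. Means were 4.82 ± 5.91 CPM in Nrf2Act-hep and 27.9 ± 11.1 CPM in WT (SD, n = 5 each), 5.79-fold lower in Nrf2Act-hep. The log2 fold change was -2.82 ± 0.85 (SE; 95% interval -4.80 to -0.84), -1.97 without Nrf2Act-hep replicate 10 and -3.48 without Nrf2Act-hep replicate 9, and its adjusted p of 0.14 (limma) missed the threshold although the value ranked 8074th of 8075 in descending order. With a pseudocount of 4 CPM in place of 1 the adjusted p was 0.044, and over all 23 alternative fits it ranged from 0.044 to 0.57. Cyp2a22 lies within the span of Cyp2a21-ps, which runs on the other strand and was not in the table. Overlap of their exons was not examined, so whether counting that ignored strand would mix their tags is not known.

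**Figure D2:**
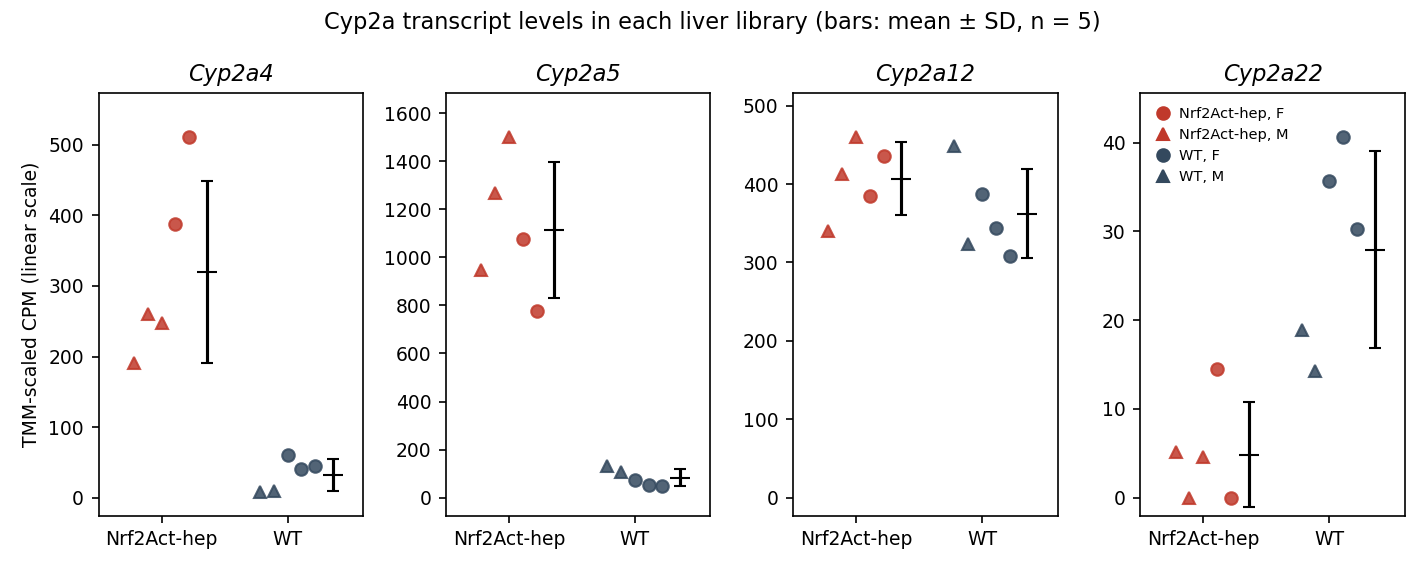
TMM-scaled CPM (y axis, linear, a separate range for each gene) of the 4 Cyp2a genes in each library of Nrf2Act-hep and WT livers, circles for F libraries and triangles for M libraries, with bars for mean ± SD (n = 5 each). Cyp2a4 and Cyp2a5 separate the genotypes without overlap, Cyp2a12 overlaps within 308 to 460 CPM, and Cyp2a22 is at 0 in 2 Nrf2Act-hep libraries.

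The make-up of the Cyp2a reads differed between the genotypes. Cyp2a5 held the largest share of the 4 in every Nrf2Act-hep library and Cyp2a12 in every WT library. Cyp2a5 took 59.9 ± 9.12% of the Cyp2a reads in Nrf2Act-hep and 16.1 ± 6.08% in WT (SD, n = 5 each). The share of Cyp2a12 was 22.2 ± 1.97% in Nrf2Act-hep and 71.7 ± 1.70% in WT, beside the level of Cyp2a12 given above. Cyp2a4 and Cyp2a5 together held 74.7 to 79.0% in every Nrf2Act-hep library and 19.2 to 25.7% in every WT library. Cyp2a22 held 0.265 ± 0.321% in Nrf2Act-hep and 5.64 ± 2.42% in WT.

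**Figure D3:**
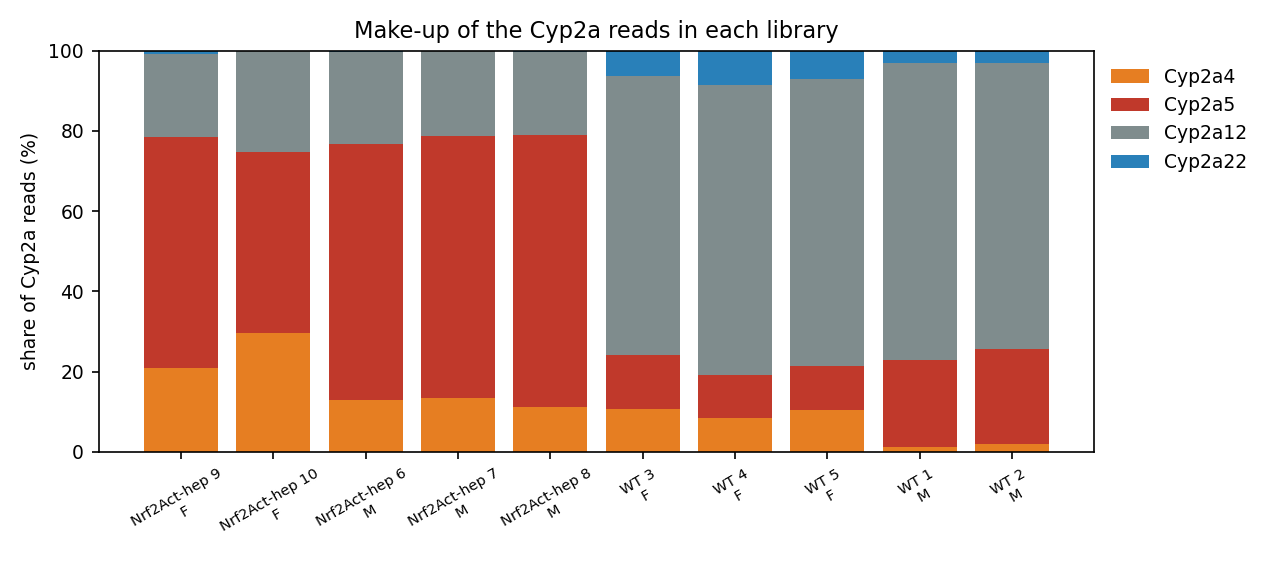
Share of Cyp2a reads (y axis, %) that each of the 4 genes held in each library (x axis, with its M or F letter), Nrf2Act-hep left and WT right. The Cyp2a4 and Cyp2a5 segments together reach 74.7 to 79.0% in Nrf2Act-hep and 19.2 to 25.7% in WT, and the Cyp2a4 segment is tallest in the F Nrf2Act-hep libraries.

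The M against F comparison asked whether the family differed between the letters, since Cyp2a4 is known as a female-predominant gene. Across genotypes 46 genes (0.570%) were higher and 48 (0.594%) were lower in F, 1.16% in all. Cyp2a4 was higher in F by 1.67 ± 0.27 on the log2 scale (SE; limma, adjusted p = 0.013), a call lost without WT replicate 2 (adjusted p = 0.080). Cyp2a5 went the other way, lower in F by a log2 difference of -0.73 ± 0.17 (SE; limma, adjusted p = 0.049). That call stood at the threshold and was lost in 7 of the 10 fits that left out a library and in 4 others. Cyp2a12 differed by -0.06 ± 0.13 (SE; 95% interval -0.33 to 0.21; limma, adjusted p = 0.92) and Cyp2a22 by 0.67 ± 0.85 (SE; 95% interval -1.31 to 2.65; limma, adjusted p = 0.86).

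Within genotypes, the mean of Cyp2a4 was 1.93-fold higher in F than in M Nrf2Act-hep libraries and 5.81-fold higher in F than in M WT libraries. On the log2 scale the F over M difference of Cyp2a4 was 0.95 ± 0.20 in Nrf2Act-hep (SE; limma interaction model, adjusted p = 0.027) and 2.39 ± 0.20 in WT (adjusted p = 1.32e-07). For Cyp2a5 it was -0.41 ± 0.22 in Nrf2Act-hep (SE; limma interaction model, adjusted p = 0.93) and -1.04 ± 0.22 in WT (adjusted p = 0.021).

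The rise of Cyp2a4 with NRF2 activation was likewise 9.31-fold between the means of F libraries and 28.0-fold between those of M libraries. Its log2 fold change was 3.20 ± 0.20 in F and 4.64 ± 0.20 in M (SE; limma interaction model), and the interaction term, F minus M, was -1.44 ± 0.28 (SE; 95% interval -2.03 to -0.86). Its unadjusted p of 4.66e-05 came to an adjusted p of 0.080 over all genes, so it missed the threshold, beside 2 genes of 8075 (0.0248%) that passed. The adjusted p fell under the threshold with no filter on low values (0.0040) and when Nrf2Act-hep replicate 10 (0.041) or WT replicate 4 (0.027) was left out, and reached 0.26 at most. For Cyp2a5 the rise was 15.9-fold in F and 10.4-fold in M, with an interaction of 0.63 ± 0.31 (SE; 95% interval -0.02 to 1.29; limma, adjusted p = 0.72).

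**Figure D4:**
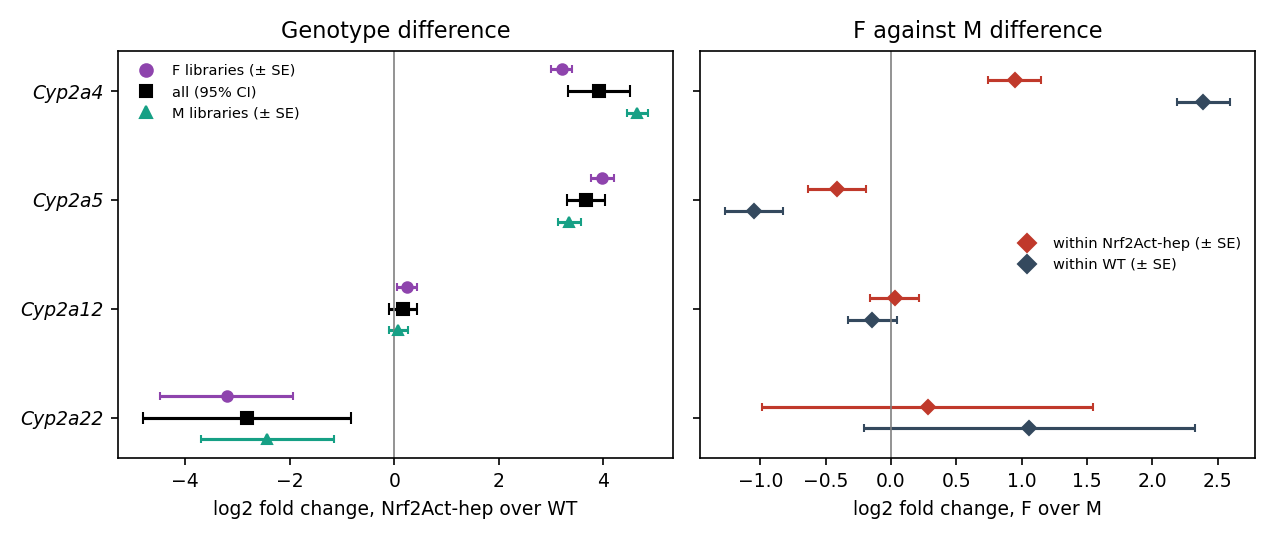
Log2 fold changes of the 4 genes between Nrf2Act-hep and WT (left, squares for all libraries with 95% intervals, circles for F and triangles for M libraries with SE) and between F and M (right, within Nrf2Act-hep and within WT, with SE). The Cyp2a4 values of F and M libraries, 3.20 and 4.64, are apart by several SE, while those of Cyp2a5, 3.98 and 3.35, differ less and in the other order.

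Plain ratios between paralogs compare members within a library and do not change with its scaling, and the tests used log2 ratios of CPM + 1. Cyp2a4 stood to Cyp2a5 as 0.360 and 0.659 in F Nrf2Act-hep libraries, against 0.797, 0.775 and 0.944 in F WT libraries. In M libraries the ratio was 0.202, 0.205 and 0.165 in Nrf2Act-hep, against 0.0570 and 0.0853 in WT. With active NRF2 the ratio was thus lower in every F library and higher in every M library than in the WT libraries of the same letter. The mean log2 ratio differed by -0.78 in F and by 1.30 in M. Averaged over the letters the difference was 0.26 (two-sided exact permutation of genotype within letter, 100 arrangements, p = 0.58, Benjamini-Hochberg adjusted p = 0.58 over 6 ratios).

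The difference between the letters in this ratio, F minus M, was -2.08 on the log2 scale. An exact permutation of genotype within letter, two-sided and with a statistic chosen after the values were seen, gave p = 0.01, the smallest that 100 arrangements can give, and an adjusted p of 0.060 over the 6 ratios, which missed the threshold. A single ratio at that smallest p cannot pass after adjustment over 6, and this permutation is not a test for equal effects in F and M. Full separation of the libraries in opposite directions, seen beforehand, already puts this statistic at its extreme, so its p adds no support. The difference is therefore given as a description. The Nrf2Act-hep libraries of both letters lay between the F WT libraries, which had the highest ratios, and the M WT libraries, which had the lowest. The limit on tags shared between Cyp2a4 and Cyp2a5 applies to this ratio.

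**Figure D5:**
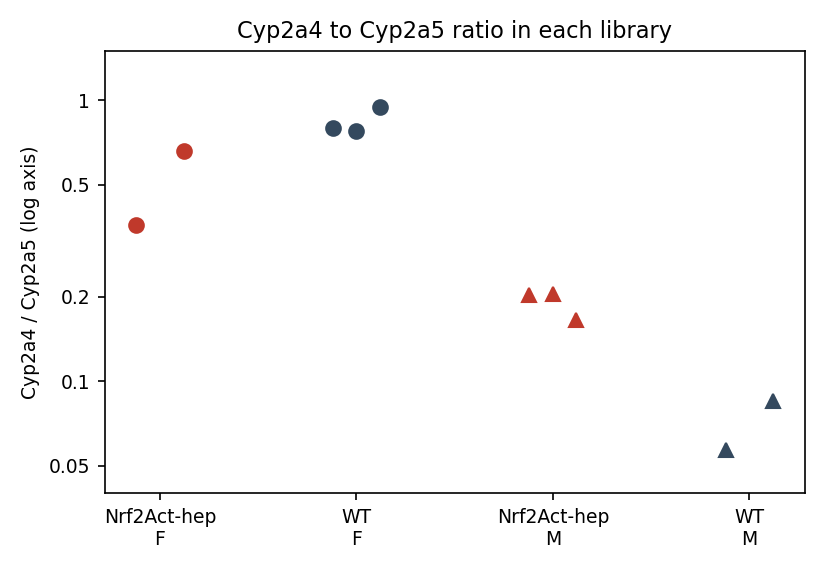
Ratio of Cyp2a4 to Cyp2a5 (y axis, log scale, no unit) in each library, by letter and genotype. F Nrf2Act-hep libraries (0.360 and 0.659) lie below F WT libraries (0.775 to 0.944), and M Nrf2Act-hep libraries (0.165 to 0.205) lie above M WT libraries (0.0570 and 0.0853).

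Cyp2a4 over Cyp2a12 was higher in Nrf2Act-hep by 3.76 and Cyp2a5 over Cyp2a12 by 3.50 on the log2 scale, each with p = 0.01, the smallest that 100 arrangements can give, and an adjusted p of 0.012 (two-sided exact permutation within letter, 6 ratios). The ratios of the other 3 members over Cyp2a22 gave the same p and adjusted p, but their size is a description only, because 2 Nrf2Act-hep libraries held no Cyp2a22 read and it moves with the pseudocount. With pseudocounts of 4, 1 and 0.5 CPM the difference in Cyp2a12 over Cyp2a22 was 2.05, 2.98 and 3.42 on the log2 scale, and it ranged from 1.94 without Nrf2Act-hep replicate 10 to 4.01 without Nrf2Act-hep replicate 9. With the same pseudocounts it was 5.58, 6.74 and 7.22 for Cyp2a4 over Cyp2a22 and 5.51, 6.48 and 6.93 for Cyp2a5 over Cyp2a22. Leaving out those same 2 libraries in turn gave 5.65 and 7.82 for Cyp2a4 over Cyp2a22, and 5.61 and 7.35 for Cyp2a5 over Cyp2a22.

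Among the other Cyp2 genes of the same cluster, 6 of 9 listed genes were in the table and 4 passed the filter. Cyp2f2, which lies next to Cyp2a12 and encodes a periportal and lung P450 that activates naphthalene, rose by 0.82 ± 0.13 on the log2 scale (SE; limma, adjusted p = 0.00029; 0.088 in F libraries alone). It averaged 1062 ± 182 CPM in Nrf2Act-hep and 575 ± 102 CPM in WT (SD, n = 5 each). Cyp2b10, the classic target of the receptor CAR, had a log2 fold change of 0.02 ± 0.49 (SE; limma, adjusted p = 0.99), which turned slightly negative in all 4 fits on recovered reads. Cyp2b9 and Cyp2b13 were not called between genotypes. In F, Cyp2b9 was higher by 2.22 ± 0.31 (limma, adjusted p = 0.0066, and 0.34 in WT libraries alone) and Cyp2b13 by 3.95 ± 0.34. Cyp2b13 passed the filter on low values only through its F libraries, so its F over M difference is a description. The median log2 fold change of the 4 genes that passed the filter was 0.26, against 0.0051 over all genes.

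Of 5 electron donors or partners of microsomal P450s, 1 rose and none fell, with a median log2 fold change of 0.33. Beside this stand the 2.79% higher, 1.86% lower and median of 0.0051 of all genes, which also apply to the genotype counts of the lists that follow. The gene that rose was Pgrmc1, a haem-binding partner of P450 enzymes and not counted here as a donor. It averaged 324 ± 44.9 CPM in Nrf2Act-hep and 166 ± 4.65 CPM in WT (SD, n = 5 each). Its log2 fold change was 0.93 ± 0.12 (SE, limma, adjusted p = 1.46e-05). Por, the P450 reductase, had 0.21 ± 0.12 (SE; adjusted p = 0.42) and Cyb5a, cytochrome b5, 0.33 ± 0.13 (SE; adjusted p = 0.20). Of 12 tested genes of haem synthesis and bilirubin steps, 1 rose and none fell (median -0.02). It was Blvrb, biliverdin reductase B, with 1.85 ± 0.12 (SE; limma, adjusted p = 3.2e-10). Alas1, the first enzyme of haem synthesis, had 0.44 ± 0.15 (SE; limma, adjusted p = 0.10), with adjusted p under the threshold in 3 of 23 alternative fits.

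Of 12 tested regulators reported for Cyp2a4 or Cyp2a5, such as nuclear receptors, D-box factors and HNF4, none was called between genotypes (median 0.01). Of these, 6 had a log2 fold change above 0. Among the D-box factors, Dbp spanned 3.28 to 19.6 CPM in Nrf2Act-hep and 3.12 to 12.2 CPM in WT, with means of 13.7 and 6.27 CPM. The means were 57.1 and 47.0 CPM for Tef and 65.5 and 76.3 CPM for Hlf, in the same order. Hnf4a had a log2 fold change of -0.09 ± 0.12 (SE; limma, adjusted p = 0.78), which turned positive on the deposited scale and in F libraries alone, and Nr1i3, which encodes CAR, 0.27 ± 0.13 (SE; limma, adjusted p = 0.33). Of 27 tested NRF2 targets 21 were higher and none lower, with a median of 1.37, beside 2.79% higher of all genes. These genes were listed with earlier results of these data known, so the count is a description. An example was Cbr3, a carbonyl reductase with 2204 reads over the Nrf2Act-hep libraries and 1 over the WT libraries. Others were the glutathione transferases Gstm3 (3.69 ± 0.30) and Gsta2 (3.19 ± 0.24) and the efflux pump Abcc4 (3.23 ± 0.23, log2 fold changes ± SE). Cbr3 and Abcc4 passed the filter on low values only through their Nrf2Act-hep libraries, and Gstm3 and Gsta2 would not have passed on their WT libraries alone. Their differences are therefore a description.

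Cyp2a5 is known to be expressed around the central vein. Of 13 tested pericentral genes 2 rose and none fell (median 0.22), beside 2.79% higher and 1.86% lower of all genes, namely Cyp1a2 (1.54 ± 0.23 SE; limma, adjusted p = 0.0018) and Aldh1a1 (0.74 ± 0.16 SE; limma, adjusted p = 0.0086). The call of Aldh1a1 was lost without WT replicate 1 (adjusted p = 0.055), without the letter term (0.13) and in F libraries alone (0.40). Of 14 periportal genes 2 rose, Etnppl and Cyp2f2, and 1 fell, Cdh1 (median -0.02). Of 8 tested female-predominant liver genes 6 were higher in F, and 1, the sulfotransferase Sult3a1, rose with genotype (2.13 ± 0.38 SE; limma, adjusted p = 0.0054), with a list median of -0.41. The call of Sult3a1 was lost with a pseudocount of 4 CPM (1.68, adjusted p = 0.10), in M libraries alone (1.39, adjusted p = 0.34) and without the letter term (1.06, adjusted p = 0.85). Of 10 tested male-predominant genes 7 were lower in F and 1 was higher, and 3, Cyp7b1, Mup20 and Cyp2d9, rose with genotype (median 0.41). Of all genes tested, 0.57% were higher and 0.594% were lower in F. Cyp2b13, Cyp3a44, Sult2a1 and Sult3a1 passed the filter on low values only through their F libraries, and Cyp4a12b only through its M libraries. The counts by letter in these lists are therefore a description.

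The genes with the profile most like each member were ranked by the root mean square difference of centred log2 values over the 10 libraries, among the 7717 genes that averaged 5 CPM or more. For Cyp2a4 these were Ly6d (0.70), Abcc4 (0.88) and Dct (0.91), and Ly6d, a surface protein gene, rose by 2.73 ± 0.20 on the log2 scale (SE). For Cyp2a5 they were the glutathione transferases Gstm3 (0.47) and Gsta2 (0.49), then Nrxn2 (0.55) and Serpinb1a (0.59). Serpinb1a, a protease inhibitor gene, rose by 3.10 ± 0.23 (SE). For Cyp2a12, whose own spread was small, Dnaja1 (0.076) and Lman1 (0.096) came first. Cyp2a22 had no close match. Its nearest was Enho (1.01), the gene of the secreted peptide adropin, which fell by 1.73 ± 0.33 on the log2 scale (SE). Enho passed the filter on low values only through its WT libraries. The root mean square differences stand beside each member's own spread, 2.01 for Cyp2a4, 1.96 for Cyp2a5, 0.19 for Cyp2a12 and 1.88 for Cyp2a22. The genes were picked by their profile over the same 10 libraries, so a genotype difference in the member's direction follows from the choice. No test is given for it. Abcc4, Dct and Nrxn2 passed the filter on low values only through their Nrf2Act-hep libraries. Ly6d and Serpinb1a would not have passed on their WT libraries alone.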

How the data were processed

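RNA of 10 liver libraries was read with the Lexogen QuantSeq FWD kit as single 75-base reads, per the labels' protocols. The authors deposited CPM per gene, with GRCm38 named as the build by the submitters' processing notes. Aligner, counter, annotation and strand setting: not given in the sources used here. Every value (100%) was a whole multiple of 1 read within 0.01 read, so reads were recovered. Counting intervals and floors cover counting error only. The members and lists were chosen with earlier results of these data known. The deposited CPM were scaled by TMM (edgeR 4.0.16) and log2(CPM + 1) was fitted with limma 3.58.1 (trend, robust) in R 4.3.3, with the letter as covariate, on 8075 genes with at least 10 reads at the median depth (4.50 CPM) in 5 libraries and 15 reads in all. This scale understates the change of low genes. P-values were Benjamini-Hochberg adjusted over all genes tested, at a threshold of 0.05. The tests were tested on simulated data. Alternatives were edgeR, RLE factors, DESeq2 1.42.0, limma-voom, other filters, pseudocounts and scaling, subsets, and each library left out. Sequences came from RefSeq (GRCm38.p6) and GENCODE (GRCm38) and were aligned with Biopython 1.88. Genes were named as members, up to 4 called members per list (2 most abundant where fewer passed) or nearest profiles. Cyp2b9, Cyp2b13, Alb, Dbp, Tef, Hlf and Nfe2l2 were added as list members or as the activated gene. All library pairs differed beyond counting noise (chi-square per degree of freedom at least 4.28).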

Additional observations from a re-analysis of the deposited data

Results flagged for a closer look

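The ratio of Cyp2a4 to Cyp2a5 was singled out because the genotype difference ran in opposite directions in the letters, lower in both F Nrf2Act-hep libraries than in any F WT library and higher in all 3 M Nrf2Act-hep libraries than in either M WT library. The difference in F minus that in M was -2.08 on the log2 scale. An exact permutation of genotype within letter, two-sided and chosen after the values were seen, gave p = 0.01, the smallest possible, and an adjusted p of 0.060 over 6 ratios, which missed the threshold; a single ratio at the smallest p cannot pass after this adjustment, and the permutation does not test for equal effects in F and M. The separation by which the ratio was singled out already puts this statistic at its extreme, so its p adds no support. With single libraries left out, the difference in F minus that in M ranged from -2.51 to -1.64.

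In the ratio of Cyp2a5 to Cyp2a12, Nrf2Act-hep replicate 10, an F library, stood apart from the other Nrf2Act-hep libraries at 0.83 on the log2 scale, against 1.47 to 1.70 in the other 4. Its gap was 0.733 of the group's range, above the critical share of 0.710 for 5 samples. Of 20 groups examined this way 1 stood out, and chance gives about 1 in 20.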

How the results depend on the processing

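The rises of Cyp2a4 and Cyp2a5 kept their direction and call in all 23 alternative fits, and the differences of both in their ratio to Cyp2a12 did so in all alternatives run. With 1 library left out the number of genes called was 245 to 345 between genotypes, 57 to 147 between F and M and 1 to 12 for the interaction; it was 130 for genotype in F libraries alone, 58 for F over M in Nrf2Act-hep libraries alone and 18 for the interaction with no filter. On the deposited scale without TMM the split between genotypes was 384 higher and 80 lower, and the median log2 fold change of all genes was 0.13. With 1 library left out, F over M ranged over 1.45 to 1.91 for Cyp2a4, -0.89 to -0.60 for Cyp2a5 and -0.13 to 0.0523 for Cyp2a12, positive without WT replicate 1, and the interaction ranged over -1.65 to -1.26 for Cyp2a4, -0.0633 to 0.40 for Cyp2a12 and -2.75 to 1.18 for Cyp2a22. The interaction of Cyp2a4 was -1.44 with no filter (adjusted p = 0.0040). Cyp2a5 missed the threshold between F and M in edgeR with TMM (-0.70), on the deposited scale (-0.73), with a pseudocount of 0.5 CPM (-0.73) and in Nrf2Act-hep libraries alone (-0.41). In those last libraries Cyp2a12 was at 0.0268. Cyp2a22 passed with a pseudocount of 4 CPM for genotype (-1.89) and in WT libraries alone for F over M (1.07), and its interaction was 0.21 in edgeR with TMM and 0.19 with RLE factors. The Cyp2a4 over Cyp2a5 difference was -0.22 without letter strata. Differences in F minus those in M, with 1 library left out, ranged over -2.84 to 1.51 for Cyp2a4 over Cyp2a22, -0.33 to 3.15 for Cyp2a5 over Cyp2a22 and -1.12 to 3.02 for Cyp2a12 over Cyp2a22. Cyp2b10 between genotypes was -0.0346 in edgeR with TMM, -0.0380 with RLE factors, -0.0140 in DESeq2, -0.0106 in limma-voom, -0.14 without a letter term, -0.56 in F libraries alone and -0.43 to 0.46 with 1 library left out. Hnf4a was 0.12 in F libraries alone and 0.0439 on the deposited scale. The cause of these changes was not tested. Depth limits Cyp2a22 and Cyp2a4 in M WT livers. No paired analysis was possible because the replicate numbers run from 1 to 10 without repeats.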
